A study of Mus musculus with 12 samples.

Results

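The 31 genes described here are known targets of the nuclear receptor PPARA and enzymes of fatty acid oxidation, together with Ppara itself. They were chosen by symbol, with earlier results of these data known. All 31 were found by their Ensembl identifiers among the 55414 genes of the count table. Livers and lungs of WT mice of the C57BL/6J strain, fed chow, were taken for RNA sequencing 6 h after surgery. The operation was CLP, the usual abbreviation of cecal ligation and puncture, which lets gut bacteria leak into the abdomen, or sham surgery. Each of the 4 groups, CLP liver, sham liver, CLP lung and sham lung, held 3 libraries, 12 in all, and no genotype, drug or transgene set the groups apart. The labels give no age and do not say whether a library was made from 1 mouse or several, nor whether libraries came from separate mice, so p-values measure the spread between these libraries, which may be technical.

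PPARA is a receptor that binds long-chain fatty acids and, paired with the retinoid X receptor, switches on genes for burning fat when food is scarce. In hepatocytes this covers uptake and activation of fatty acids, their passage into mitochondria as carnitine esters, the cycle of beta-oxidation, a parallel peroxisomal route for very long chains, omega-hydroxylation in the endoplasmic reticulum, and ketone body synthesis. FGF21 and ANGPTL4 are secreted products of PPARA target genes, and lung holds cells that also burn or import fat, among them alveolar type 2 cells, macrophages and capillary endothelium.

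Levels are given as CPM, counts scaled to a common library size within each organ by the trimmed mean of M values (TMM). Total counts were 10559895 to 13780640 in CLP liver, 12060375 to 15854117 in sham liver, 11298109 to 13590527 in CLP lung and 11946233 to 12931365 in sham lung. The 12 hepatocyte markers summed to 100438 CPM or more in every liver library and to 184 CPM or less in every lung library, and the 7 alveolar type 2 markers to 22291 CPM or more in lung and 103 CPM or less in liver, so the organ labels matched the data. Together the 31 genes made up 0.619, 0.485 and 0.705% of all counts in CLP liver, against 0.733, 0.936 and 1.09% in sham liver. In lung they made up 0.245, 0.254 and 0.303% after CLP, against 0.363, 0.329 and 0.332% after sham. In these bulk tissues, fewer cells of a type and less RNA per cell cannot be told apart. Neutrophil markers, 10 genes, summed to 163 to 235 CPM in CLP liver and 16.1 to 17.9 CPM in sham liver, and to 6734 to 9960.0 CPM in CLP lung and 902 to 1030.3 CPM in sham lung. Their part in the results that follow was not tested.

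PPARA and its partner bind a direct repeat of the hexamer AGGTCA with 1 base between the copies, written AGGTCANAGGTCA. The promoters were searched for this element, and regulation of these genes through it was not tested. RefSeq promoter windows (build GRCm38.p6, 250 bases before to 50 bases after the transcription start) were found for 24 of the 31 genes. On either strand, with at most 2 mismatches in the 12 fixed bases, the repeat lay in windows of 4 genes, against 4.4% of all 27025 genes with a window. The 4 genes were Fabp1 (chr6:71199629-71199928, plus strand), Slc25a20 (chr9:108661886-108662185, plus strand), Creb3l3 (chr10:81092542-81092841, minus strand) and Cd36 (chr5:17835847-17836146, minus strand). Their windows follow, 5′ to 3′ on the strand of the gene, with the repeat in capitals.
Fabp1: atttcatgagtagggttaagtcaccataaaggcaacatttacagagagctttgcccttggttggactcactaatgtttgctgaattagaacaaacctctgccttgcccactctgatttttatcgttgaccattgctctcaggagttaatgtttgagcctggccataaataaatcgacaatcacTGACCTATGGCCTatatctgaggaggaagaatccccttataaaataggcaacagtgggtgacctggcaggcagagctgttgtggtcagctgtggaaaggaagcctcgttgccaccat
Slc25a20: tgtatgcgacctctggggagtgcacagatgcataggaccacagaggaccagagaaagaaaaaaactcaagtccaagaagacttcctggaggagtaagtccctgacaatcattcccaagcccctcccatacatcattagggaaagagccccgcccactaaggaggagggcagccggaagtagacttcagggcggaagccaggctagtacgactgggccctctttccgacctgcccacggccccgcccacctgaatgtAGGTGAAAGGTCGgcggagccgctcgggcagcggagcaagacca
Creb3l3: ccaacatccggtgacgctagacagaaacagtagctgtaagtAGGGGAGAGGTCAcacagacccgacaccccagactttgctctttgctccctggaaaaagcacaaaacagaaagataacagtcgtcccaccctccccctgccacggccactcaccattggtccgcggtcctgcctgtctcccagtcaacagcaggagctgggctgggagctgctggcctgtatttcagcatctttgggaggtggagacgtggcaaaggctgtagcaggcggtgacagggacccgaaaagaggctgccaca
Cd36: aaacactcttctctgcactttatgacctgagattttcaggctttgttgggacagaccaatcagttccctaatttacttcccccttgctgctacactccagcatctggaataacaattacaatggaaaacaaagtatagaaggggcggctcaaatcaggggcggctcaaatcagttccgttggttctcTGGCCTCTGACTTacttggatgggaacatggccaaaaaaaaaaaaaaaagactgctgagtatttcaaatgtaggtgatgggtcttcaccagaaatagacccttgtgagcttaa
The match in Fabp1 had 1 mismatch and began 67 bases before the start, on the other strand. Those of Slc25a20, Creb3l3 and Cd36 had 2 mismatches each. In Slc25a20 the match began at base 7 of the transcript, past the start, and in Creb3l3 and Cd36 209 and 63 bases before it. Creb3l3 has 2 windows, and only the window shown holds the repeat. Of these 4 genes Slc25a20 and Creb3l3 passed the test in liver, as did 42.3% of all liver genes tested. None passed in lung, beside 48.9% of all lung genes tested, and Creb3l3 was not tested there. A match describes letters in these windows and says nothing of binding. The hexamer alone, which each copy of a perfect repeat also contains, lay in windows of 7 of the 24 genes and of 18.1% of all genes.

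In liver, Ppara, Creb3l3, Fgf21 and the 3 genes that carry fatty acids into mitochondria were lower after CLP, while most enzymes inside mitochondria and peroxisomes did not pass the test. Of the 31 genes, all tested, 8 fell and 1 rose after CLP (edgeR quasi-likelihood test, adjusted p below 0.05 by the Benjamini-Hochberg method over 12392 genes). By the same rule 21% of the background of liver genes fell and 21.4% rose, so the share that fell, 25.8%, was near that background, and the share that rose was 3.23%. The median log2 fold change of the 31 was -0.54, against -0.01 over all genes tested. Ppara and Fgf21 were the 2 that fell by at least 2-fold, as did 9.84% of all genes, and Pdk4 was the 1 that rose as much, as did 8.88%. The count of lower genes depended on scaling and on the fit. It was 13 with upper-quartile scaling, 19 with library totals alone and 14 with all 12 libraries in 1 fit. Among all genes called in liver 50.4% were higher, against 40.3% with upper-quartile scaling and 30.8% with library totals. The 12 hepatocyte markers summed to 124747 to 146944 CPM in CLP liver and 100438 to 127749 CPM in sham liver. Of the 12, 2 were called lower (Cps1 and Cyp2e1), 2 higher (Tat and Hnf4a) and 8 not called, and the part of hepatocyte content in these results was not tested.

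Ppara itself (ENSMUSG00000022383) had 37.4, 67.7 and 50.9 CPM in CLP liver, against 112, 121 and 142 CPM in sham liver. Every CLP library lay below every sham library, as in 27.6% of all liver genes tested. The log2 fold change was -1.27 ± 0.21 (standard error; edgeR, Benjamini-Hochberg adjusted p = 0.00227). Creb3l3, which encodes the liver transcription factor CREBH that acts with PPARA on fasting genes, had 243, 174 and 254 CPM in CLP liver, against 309.5, 437 and 418 CPM in sham liver. Its log2 fold change was -0.79 ± 0.19, again with no overlap (edgeR, Benjamini-Hochberg adjusted p = 0.00958). Fgf21, the hepatic hormone of fasting, was scarce, with 3.46, 0.481 and 1.85 CPM in CLP liver and 8.06, 6.51 and 6.58 CPM in sham liver. Its log2 fold change of -1.85 ± 0.49 (edgeR, Benjamini-Hochberg adjusted p = 0.0185) was no longer called when the filter on low counts was dropped or when CLP replicate 3 or sham replicate 1 was left out, where the adjusted p reached 0.0685 at most and the value lay between -2.66 and -1.37 over all alternatives. Angptl4, whose product inhibits lipoprotein lipase and which is induced by fasting in several tissues, did not pass the test, with 145 ± 24.3 CPM in CLP liver and 160.4 ± 29.4 CPM in sham liver (SD, n = 3 each; log2 fold change -0.15 ± 0.17).

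The 3 members of the carnitine shuttle all fell. Cpt1a encodes the carnitine palmitoyltransferase of the outer mitochondrial membrane, the controlled step of entry, and had 562, 537 and 723 CPM in CLP liver, against 929, 1006 and 1086 CPM in sham liver (log2 fold change -0.73 ± 0.15; edgeR, Benjamini-Hochberg adjusted p = 0.0052). Slc25a20, the translocase that exchanges acylcarnitine for carnitine across the inner membrane, had 59.7, 50.6 and 65.1 CPM in CLP liver, against 84.8, 133 and 129 CPM in sham liver (-0.98 ± 0.18; edgeR, Benjamini-Hochberg adjusted p = 0.00363). Cpt2, which turns acylcarnitine back into acyl-CoA in the matrix, had 106, 99.9 and 112 CPM in CLP liver, against 126, 199 and 166 CPM in sham liver (-0.63 ± 0.16; edgeR, Benjamini-Hochberg adjusted p = 0.0152). In none of the 3 did a CLP library reach the lowest sham library. The same was true of 8 of the 31 genes and of 27.6% of all liver genes tested. Sham replicate 1 was the lowest sham library for each of them, and the 3 calls held without it.

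For the 9 enzymes of the mitochondrial cycle log2 fold changes were -0.54 to -0.18, with a median of -0.31, and 2 of them passed the test. Acadm, the medium-chain acyl-CoA dehydrogenase, fell to 194, 186 and 211 CPM in CLP liver, against 225, 259.9 and 271 CPM in sham liver (-0.36 ± 0.12; edgeR, Benjamini-Hochberg adjusted p = 0.041). Decr1, the dienoyl-CoA reductase needed for polyunsaturated chains, fell to 128, 100.1 and 145 CPM in CLP liver, against 144, 194 and 206 CPM in sham liver (-0.54 ± 0.18; edgeR, Benjamini-Hochberg adjusted p = 0.0378), and its highest CLP library lay just above its lowest sham library. Both calls were thin. Acadm lost its call when any 1 of 5 libraries, all but sham replicate 1, was left out. Decr1 lost it without any 1 of 4, CLP replicates 1 and 2 and sham replicates 2 and 3, and the adjusted p of Acadm and Decr1 reached 0.133 and 0.121 (edgeR, Benjamini-Hochberg). The other 7 did not pass the test. These were the very-long-chain and long-chain dehydrogenases Acadvl (-0.18 ± 0.12) and Acadl (-0.28 ± 0.13), the trifunctional protein subunits Hadha (-0.31 ± 0.16) and Hadhb (-0.26 ± 0.12), the thiolase Acaa2 (-0.44 ± 0.17), the enoyl-CoA isomerase Eci1 (-0.33 ± 0.18) and Etfdh, which passes electrons to ubiquinone (-0.22 ± 0.15). For Acaa2, the CLP libraries had 485, 362 and 529 CPM and the sham libraries 522, 660.5 and 679.9 CPM, so that CLP replicate 3 and sham replicate 1 overlapped. Hadhb shares 62.4% of its transcript, in stretches of 50 bases, with 2 other annotated genes, and exons of Acadvl, Etfdh and Hadha overlap a gene on the other strand (Dvl2, 4930579G24Rik and Garem2). Which strand was counted is not given in the sources used here, so reads of such pairs may not be told apart.

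**Figure D1:**
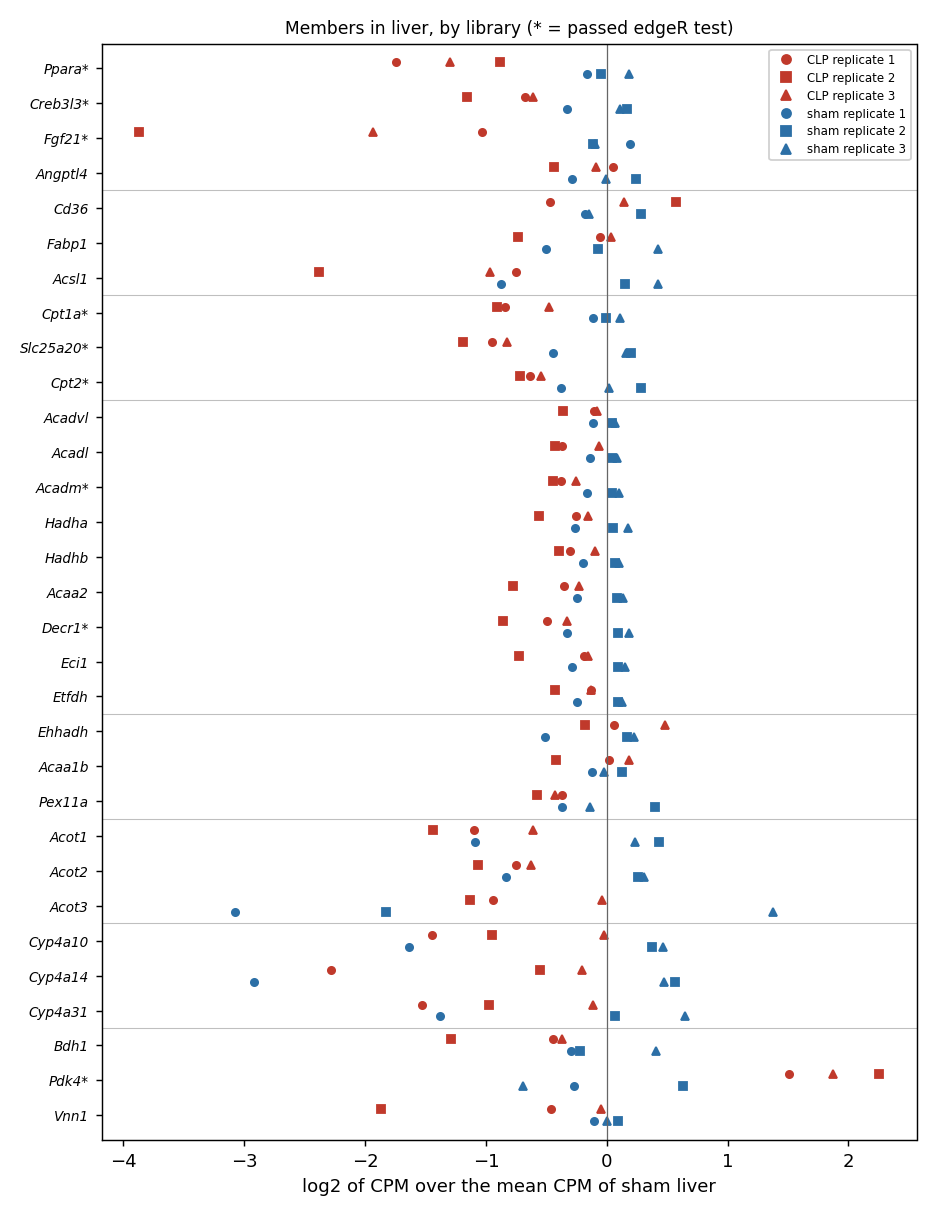
Level of the 31 genes in each of the 6 liver libraries, as the log2 of CPM over the mean CPM of sham liver, with CLP in red and sham in blue and 1 symbol per replicate; lines separate the roles and asterisks mark genes that passed the edgeR test. All CLP symbols lie left of all sham symbols for 8 of the 31 genes, beside 27.6% of all liver genes tested. These are Ppara, Creb3l3, Fgf21, the 3 carnitine shuttle genes, Acadm and Bdh1. Pdk4 has its CLP symbols on the right, as have 28.1% of all liver genes tested, and the Cyp4a genes spread widely within both groups.

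Peroxisomal genes of the set showed no called change in liver. Ehhadh, the peroxisomal bifunctional enzyme and a classical PPARA target, had 235, 199.8 and 316 CPM in CLP liver, against 159, 254 and 265 CPM in sham liver (0.15 ± 0.23). The thiolase gene Acaa1b averaged 275 ± 56.8 CPM in CLP liver and 285 ± 25.1 CPM in sham liver (SD, n = 3 each), and Pex11a, which promotes peroxisome division, averaged 73.2 ± 5.36 and 100.1 ± 28.5 CPM in CLP and sham liver. For Ehhadh and Acaa1b the groups interleaved, and for Pex11a CLP replicate 1 and sham replicate 1 were level at 77.7 and 77.4 CPM. Nor did genes of uptake, binding and activation pass the test. Cd36, a fatty acid translocase, averaged 36.3 ± 12.5 CPM in CLP liver and 32.9 ± 6.14 CPM in sham liver, and Fabp1, the liver fatty acid binding protein whose promoter holds the closest repeat above, 1969 ± 519 and 2284 ± 730.1 CPM. Acsl1, the main long-chain acyl-CoA synthetase of liver, had 266, 86.1 and 229 CPM in CLP liver, against 245, 497 and 602 CPM in sham liver. Its log2 fold change of -1.21 ± 0.49 was among the larger ones of the set, but CLP replicate 2 and sham replicate 1 stood apart from their groups and it was not called (edgeR, Benjamini-Hochberg adjusted p = 0.0923).

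The omega-hydroxylases and thioesterases, which are usually among the most inducible PPARA targets in mouse liver, spread widely among the sham libraries. Cyp4a14 had 77.5, 257 and 327 CPM in CLP liver, against 49.8, 556 and 523 CPM in sham liver, and Cyp4a10 had 147, 208 and 394 CPM against 129, 521 and 554 CPM. Cyp4a31 had 4.53, 6.65 and 12.1 CPM in CLP liver, against 5.01, 13.7 and 20.5 CPM in sham liver. In all 3 genes sham replicate 1 lay below or close to the lowest CLP library, while the other sham libraries lay above every CLP library. The thioesterase Acot1, which frees fatty acids from CoA, had sham replicate 1 among the CLP libraries, with 5.99, 4.73 and 8.41 CPM in CLP liver, against 6.03, 17.3 and 15.1 CPM in sham liver, and so had Acot2, with 1.69, 1.36 and 1.85 CPM against 1.6, 3.41 and 3.53 CPM. Acot3, a peroxisomal thioesterase, was high only in sham replicate 3, with 1.92, 1.68 and 3.59 CPM in CLP liver and 0.436, 1.04 and 9.57 CPM in sham liver. None of the 6 passed the test, with log2 fold changes of -1.02 to -0.68. Without sham replicate 1, Acot1 and Acot2 were called lower at -1.35 and -1.08 (edgeR, Benjamini-Hochberg adjusted p = 0.00491 and 0.016) and 11 members of the whole set fell, among them Acaa2 and Pex11a. Over the 14 alternatives the adjusted p of Acot1 ran from 0.00491 to 0.263 and that of Acot2 from 0.016 to 0.266. Without sham replicate 3, Acot3 turned to 1.67 and was called higher (edgeR, Benjamini-Hochberg adjusted p = 0.0448). That was the lowest adjusted p of the 14 alternatives, which ran up to 0.969 (edgeR, DESeq2 or limma-voom, Benjamini-Hochberg). Cyp4a10 and Cyp4a31 share 30.5 and 21.7% of their transcript, in stretches of 50 bases, with another gene, mainly Cyp4a32, and the Acot genes share 21.7 to 33%, so the division of reads among these copies is uncertain. Exons of Acot3 also overlap the protein-coding gene Gm49366 on the same strand in the reference annotation, so their reads may not be told apart whichever strand was counted.

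**Figure D2:**
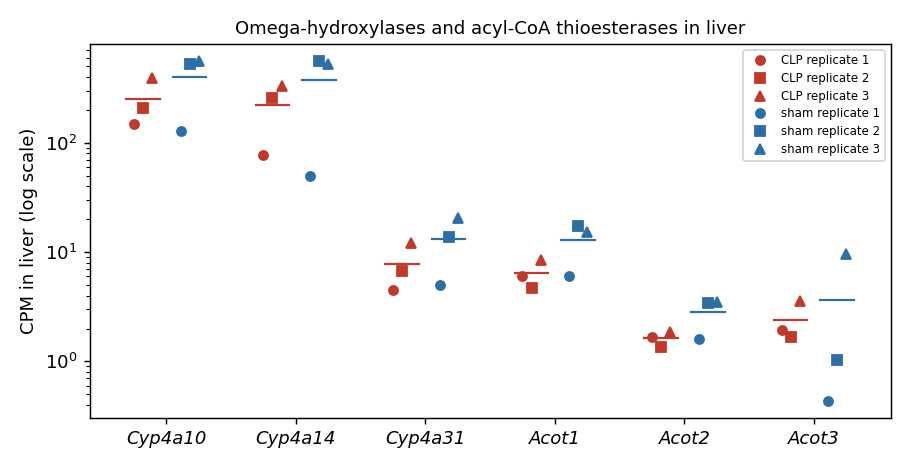
CPM on a log axis of the 3 omega-hydroxylases and 3 acyl-CoA thioesterases in the liver libraries, with CLP in red left of sham in blue, symbols for the replicates and bars for group means. Sham replicate 1 (circle) lies with or below the CLP libraries in each gene, for example at 49.8 CPM against 556 and 523 CPM in the other sham libraries for Cyp4a14.

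Pdk4, a kinase that shuts pyruvate dehydrogenase and spares glucose when fat is burned, was the 1 member that rose in liver. It had 13.4, 22.6 and 17.3 CPM in CLP liver, against 3.92, 7.33 and 2.93 CPM in sham liver, a log2 fold change of 1.93 ± 0.34 (edgeR, Benjamini-Hochberg adjusted p = 0.00351) that was called under all 14 alternatives run. All its CLP libraries lay above all its sham libraries, as in 28.1% of all liver genes. Bdh1, which makes beta-hydroxybutyrate from acetoacetate, had 94.5, 52.5 and 99.3 CPM in CLP liver, against 105, 110.3 and 170.2 CPM in sham liver. Its groups did not overlap, but the log2 fold change of -0.65 ± 0.28 did not pass (edgeR, Benjamini-Hochberg adjusted p = 0.105); in 27.6% of all genes tested the CLP libraries likewise lay wholly below the sham libraries. Vnn1, a pantetheinase induced by PPARA, had 27.6, 10.4 and 36.7 CPM in CLP liver, against 35.2, 40.6 and 38.1 CPM in sham liver, and only CLP replicate 2 was far from the rest.

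In lung, Cpt1a, 4 mitochondrial enzymes, a peroxisomal thiolase, 2 thioesterases and Ppara fell after CLP. Of 25 genes with enough counts to test, 9 fell and 0 rose by edgeR over 15441 genes, with 1 higher at an unadjusted p under 0.05. Of all genes tested in lung 24.9% fell and 23.9% rose, against 36% and 0% of these 25, and DESeq2, limma-voom and edgeR with DESeq2 size factors each called 1 rise, Angptl4. Among all genes called in lung 49% were higher, against 37.2% with upper-quartile scaling and 38% with library totals, which left 0 of the 25 higher. None of the 25 was called at a 2-fold change, as 9.42% of all genes were on the higher and 5.91% on the lower side. The other 6 genes, Creb3l3, Fgf21, Acot3, Cyp4a10, Cyp4a14 and Cyp4a31, had at most 8 counts in any lung library and Cyp4a31 had none. For Cyp4a31, 0 counts allow up to 0.221 to 0.266 CPM in the CLP lung libraries and 0.232 to 0.251 CPM in the sham lung libraries. These limits are on library totals without TMM scaling and cover counting error only.

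Cpt1a fell in lung as in liver, to 182, 197 and 231 CPM in CLP lung, against 299, 289 and 284 CPM in sham lung (-0.52 ± 0.10; edgeR, Benjamini-Hochberg adjusted p = 0.00379). The next steps of the shuttle did not pass the test. Slc25a20 had 41.5, 41.4 and 37.5 CPM in CLP lung and 38.5, 39.2 and 38.7 CPM in sham lung, and Cpt2 averaged 25.6 ± 1.85 and 25 ± 0.523 CPM in CLP and sham lung (SD, n = 3 each). Their log2 fold changes were 0.05 ± 0.08 and 0.04 ± 0.09. Ppara was scarce in lung, at 19 to 70 counts per library, with 3.88, 1.54 and 3.18 CPM in CLP lung and 5.28, 5.23 and 4.92 CPM in sham lung. Its log2 fold change of -0.84 ± 0.30 passed narrowly (edgeR, Benjamini-Hochberg adjusted p = 0.0458), and the call was lost in 7 of 14 alternatives, among them leaving out any 1 sham library, CLP replicate 2 or CLP replicate 3, with adjusted p between 0.0101 and 0.115 over all 14.

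Within mitochondria, 4 of 9 enzymes fell in lung, beside 24.9% of all genes tested. All 4 had every CLP library below every sham library, as did 31.1% of all genes tested. Acadm had 39.6, 47.4 and 42.3 CPM in CLP lung, against 64.7, 72.6 and 62.2 CPM in sham lung (-0.63 ± 0.10; edgeR, Benjamini-Hochberg adjusted p = 0.00126). Acaa2, which cleaves medium chains at the end of each round, had 68.9, 84.8 and 94.6 CPM in CLP lung, against 119, 133 and 129 CPM in sham lung (-0.62 ± 0.12; edgeR, Benjamini-Hochberg adjusted p = 0.00309). Decr1 had 27.8, 33.9 and 37.0 CPM in CLP lung, against 52.9, 48.3 and 52.0 CPM in sham lung (-0.64 ± 0.11; edgeR, Benjamini-Hochberg adjusted p = 0.00222). Eci1 had 18.4, 23.0 and 19.8 CPM in CLP lung, against 26.5, 28.8 and 30.0 CPM in sham lung (-0.48 ± 0.11). The other 5 did not pass the test. Hadha averaged 139 ± 4.22 CPM in CLP lung and 139.8 ± 1.73 CPM in sham lung (SD, n = 3 each), Acadl 165 ± 6.61 and 155 ± 9.16 CPM, and Acadvl 84.2 ± 1.71 and 93.1 ± 4.54 CPM. For Acadvl every CLP library lay below every sham library, and it was called lower with upper-quartile scaling and with library totals. The log2 fold changes of these 5 enzymes ran from -0.14 (Acadvl) to 0.13 (Etfdh).

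The peroxisomal thiolase Acaa1b fell to 11.9, 10.3 and 13 CPM in CLP lung, against 17.4, 19.9 and 19.8 CPM in sham lung (-0.70 ± 0.12; edgeR, Benjamini-Hochberg adjusted p = 0.00234). Acaa1b shares 46.2% of its transcript with another gene, chiefly Acaa1a, and its exons overlap Dlec1 on the other strand in the reference annotation. The thioesterases that lung expressed also fell, Acot1 to 27.5, 26.3 and 28.7 CPM in CLP lung against 36.7, 41.4 and 32.9 CPM in sham lung, and Acot2 to 11.3, 10.0 and 9.18 CPM against 15.3, 15.2 and 15.0 CPM. Their log2 fold changes were -0.43 ± 0.10 and -0.57 ± 0.12 (edgeR, Benjamini-Hochberg adjusted p = 0.00901 and 0.00484). The groups of both genes did not overlap. The call of Acot1 was lost when all 12 libraries entered 1 fit, at an adjusted p of 0.218 (edgeR, Benjamini-Hochberg). Its adjusted p ranged from 0.00148 to 0.218 over the 14 alternatives (edgeR, DESeq2 or limma-voom, Benjamini-Hochberg). Ehhadh (-0.24 ± 0.12) and Pex11a (0.23 ± 0.12) were not called, although in both the groups did not overlap, as in 31.1% of all genes tested with CLP lower and 28.6% with CLP higher.

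Genes of fatty acid import and of fuel choice did not pass the test in lung. Cd36, which is abundant in lung capillary endothelium and macrophages, had 1221, 1075 and 1623 CPM in CLP lung, against 1887, 1533 and 1654 CPM in sham lung (-0.37 ± 0.16; edgeR, Benjamini-Hochberg adjusted p = 0.0926). CLP replicate 3 lay among the sham libraries, and without it the gene was called lower. Angptl4 had 226, 232 and 246 CPM in CLP lung, against 207, 209 and 170.4 CPM in sham lung, with no overlap (0.27 ± 0.10; edgeR, Benjamini-Hochberg adjusted p = 0.0553). Pdk4 had 76.4, 130.4 and 71.7 CPM in CLP lung, against 78.2, 76.8 and 48.9 CPM in sham lung. The high library was CLP replicate 2, which was also the highest for the 11 heart and skeletal muscle markers, at 717 CPM, against 247 and 67.8 CPM in the other CLP libraries and 464 to 550.3 CPM in sham lung, and for the 9 white fat markers, at 293 CPM, against 142 and 122 CPM and 174 to 175 CPM. The 7 brown fat markers were highest in CLP replicate 1 instead, at 59.9, 50.6 and 29.1 CPM in CLP lung, against 12.15 to 12.7 CPM in sham lung. Of these 7, 1 was called higher, 3 were not called and 3 were too low to test. Muscle and fat use Pdk4, and their part in its level was not tested. Alveolar type 1 markers, 6 genes, summed to 2437 to 3447 CPM in CLP lung and 4083 to 4324 CPM in sham lung, and alveolar type 2 markers to 22291 to 26125 and 26229.6 to 28344 CPM. The part of muscle, fat and alveolar cell content in the falls was not tested.

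**Figure D3:**
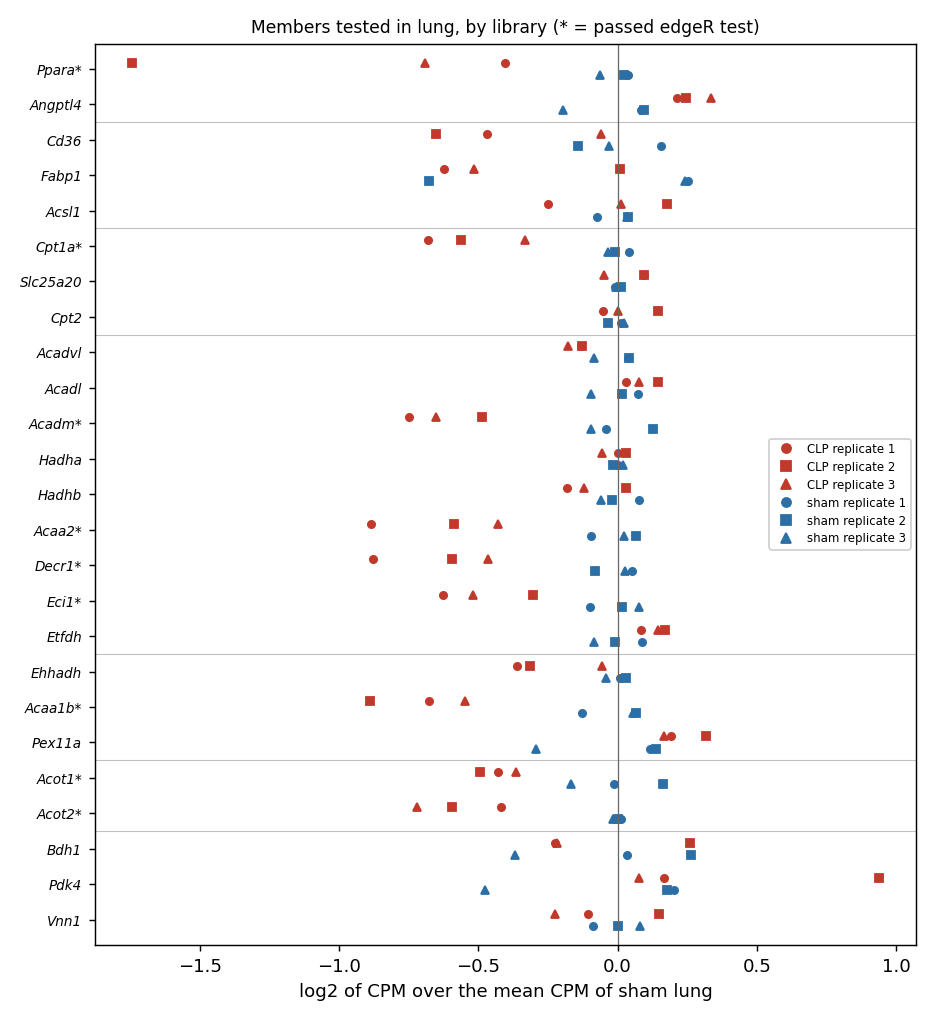
Level of the 25 genes tested in lung in each of the 6 lung libraries, as the log2 of CPM over the mean CPM of sham lung, drawn like the liver plot. All CLP symbols lie left of all sham symbols for 11 genes, beside 31.1% of all lung genes tested. They are the called genes Ppara, Cpt1a, Acadm, Acaa2, Decr1, Eci1, Acaa1b, Acot1 and Acot2, and Acadvl and Ehhadh, which were not called. Angptl4 and Pex11a have their CLP symbols on the right, as have 28.6% of all lung genes tested. Slc25a20, Cpt2 and Hadha lie close to 0, and the outlying Pdk4 symbol is CLP replicate 2.

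Set side by side, 4 genes fell in both organs, Ppara, Cpt1a, Acadm and Decr1 of the 25 tested in both. Of all 11781 genes tested in both organs 10.8% did so. Among the 4, only Cpt1a kept its call under all 14 alternatives in both organs. Ppara lost its lung call in 7 of 14, and Acadm and Decr1 lost their liver calls in 5 and 4 of 14. No member was called in opposite directions, as 1.34% of all genes were with liver lower and lung higher, and 1.45% the other way. Acaa2, Eci1, Acaa1b, Acot1 and Acot2 passed the test in lung alone, Slc25a20 and Cpt2 in liver alone, and 13 genes in neither. Whether the responses differed was tested in 1 edgeR model of all 12 libraries as the response in lung minus that in liver. Of all 16111 genes in that model 8.89% had a higher and 8.84% a lower response in lung, and of the 25 genes 2 and 1 did. Unlike the 25, the 16111 were not limited to genes tested in both organs. The response of Slc25a20 was higher in lung by a log2 difference of 1.01 ± 0.21 (edgeR, Benjamini-Hochberg adjusted p = 0.00534) and was called under all 19 alternatives run. The responses of Cpt2, 0.64 ± 0.20 higher, and Acaa1b, 0.68 ± 0.21 lower in lung, passed narrowly (edgeR, Benjamini-Hochberg adjusted p = 0.0392 and 0.0448). They were lost in 11 and 13 of 19 alternatives, with adjusted p of at most 0.089 and 0.153 (edgeR, DESeq2 or limma-voom, Benjamini-Hochberg). Cpt2 kept its call with CLP liver 3, sham liver 1 or CLP lung 3 left out and Acaa1b with CLP liver 2 or CLP lung 3 left out, and each lost it without any 1 of the other libraries. For Pdk4 the difference of -1.51 ± 0.48 did not pass (edgeR, Benjamini-Hochberg adjusted p = 0.0511), although it did by DESeq2 and without sham liver 2, CLP lung 2 or sham lung 3. Nor did those of Acaa2 (-0.21 ± 0.23), Eci1 (-0.17 ± 0.22), Acot1 (0.57 ± 0.42) and Acot2 (0.22 ± 0.35) pass. For these 4, called in lung alone, the liver and lung responses were not shown to differ.

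**Figure D4:**
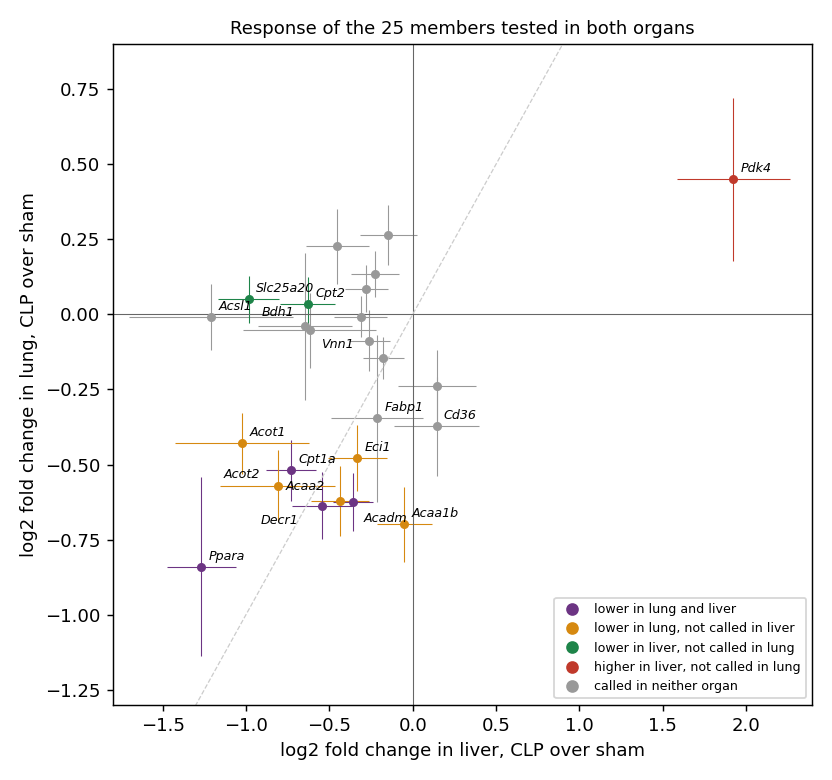
Log2 fold change after CLP of the 25 genes tested in both organs, lung on the vertical and liver on the horizontal axis, with standard errors as bars and a dashed line of equal change; colours give the edgeR calls. Slc25a20 and Cpt2 lie at 0.05 and 0.04 in lung and at -0.98 and -0.63 in liver, and Acaa1b lies at -0.70 in lung and -0.05 in liver.

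Other genes of the pathway, in lists of genes that are not members, are given by counts beside the background of 21% lower and 21.4% higher in liver and 24.9% lower and 23.9% higher in lung. The lists were chosen with earlier results of these data known, so their shares only describe the genes picked. The genes named are among the 3 with the lowest p in each list and organ or, where calls went both ways, have the lowest p of the other direction. Their adjusted p ran from 4.67e-05 to 0.0136 in liver and from 0.000123 to 0.018 in lung (edgeR, Benjamini-Hochberg). Of 16 further genes of mitochondrial fatty acid oxidation tested in liver, 7 fell and the other 9 were not called. Over the 14 alternatives 4 to 12 fell, with the highest count under library totals. Mlycd, which removes the malonyl-CoA that inhibits CPT1, fell to 34.2 ± 5.58 CPM in CLP liver, against 75.1 ± 5.66 CPM in sham liver (SD, n = 3 each). Crat, a carnitine acetyltransferase, fell to 14.9 ± 2.12 CPM against 49.4 ± 16.3 CPM, and Acad11, a dehydrogenase of hydroxylated chains, to 204 ± 37.6 against 388 ± 59.0 CPM. In lung 6 of 18 fell and 1 rose. Hadh, the short-chain hydroxyacyl-CoA dehydrogenase, fell to 47.0 ± 5.25 CPM in CLP lung, against 92.8 ± 6.73 CPM in sham lung, Acad10 to 5.81 ± 1.42 against 15.3 ± 1.48 CPM and Acad11 to 22.3 ± 2.91 against 33.9 ± 1.52 CPM. Slc22a5, the carnitine importer, rose to 62.0 ± 6.94 CPM in CLP lung, against 44.2 ± 2.03 CPM in sham lung, a call that was lost with all 12 libraries in 1 fit.

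Of 32 other peroxisomal genes tested in liver 15 fell, 46.9%, and the other 17 were not called. With library totals 26 fell. The 15 included Pex10, a gene of peroxisome assembly, at 1.57 ± 0.530 CPM in CLP liver against 5.56 ± 0.425 CPM in sham liver (SD, n = 3 each). In lung 13 of 32 fell and 2 rose. Crot, the peroxisomal carnitine octanoyltransferase, fell to 27.8 ± 1.87 CPM in CLP lung, against 46.7 ± 1.36 CPM in sham lung, Decr2, the peroxisomal dienoyl-CoA reductase, to 9.96 ± 0.894 against 19.8 ± 0.353 CPM, and Pex6 to 32.0 ± 2.56 against 56.0 ± 4.42 CPM.

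Of 9 genes of ketone body metabolism, 1 fell and 2 rose in liver and 2 fell and 2 rose in lung. The monocarboxylate transporter genes Slc16a1 and Slc16a6 rose, to 219 ± 57.8 CPM and 52.0 ± 16.8 CPM in CLP liver, against 49.5 ± 10.3 CPM and 22.5 ± 5.54 CPM in sham liver (SD, n = 3 each). Slc16a6 was not called when the low-count filter was dropped. In lung Slc16a6 and Slc16a1 rose to 65.2 ± 17.9 and 46.6 ± 7.91 CPM after CLP, against 11.1 ± 1.06 and 25.5 ± 2.33 CPM after sham. Both transporters carry more than ketone bodies, and that of Slc16a1 moves lactate and pyruvate in most cells.

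Of 18 other genes of uptake and activation tested in liver, 9 fell and 3 rose, against 3 lower and 5 higher of 16 in lung. In liver Acbd4, an acyl-CoA binding protein, fell to 9.03 ± 1.15 CPM in CLP liver, against 20.7 ± 0.258 CPM in sham liver, and Acsm3, a medium-chain acyl-CoA synthetase, to 55.5 ± 9.90 against 118 ± 4.99 CPM (SD, n = 3 each). Fabp4, a fatty acid binding protein of fat cells, macrophages and endothelium, rose to 43.4 ± 6.5 against 12.1 ± 3.20 CPM. The 9 white fat markers, which include Fabp4 and Lipe, summed to 76.2 to 123 CPM in CLP liver and 49.7 to 88.2 CPM in sham liver, with 1 higher, 1 lower, 2 not called and 5 too low to test. Of these 5, Plin1 and Lep were at 0 in all 6 libraries and Adipoq had 1 count in CLP liver and 0 in sham liver. The part of fat in the level of Fabp4 was not tested. In lung Slc27a1, a fatty acid transporter, fell to 32.4 ± 2.98 CPM after CLP, against 54.5 ± 4.29 CPM after sham, as did Acbd4, to 26.3 ± 1.74 against 38.8 ± 1.69 CPM, while Dbi, the acyl-CoA binding protein, rose to 81.0 ± 4.62 against 59.4 ± 2.75 CPM. Of 12 other hydroxylases and omega-oxidation genes tested in liver 4 fell and the other 8 were not called. Among the 4 were Cyp4f15, at 38.8 ± 4.15 CPM in CLP liver against 76.5 ± 5.54 CPM in sham liver, Cyp4a32, at 9.24 ± 1.68 against 19.6 ± 4.35 CPM, and the epoxide hydrolase Ephx2, at 422 ± 87.4 against 734 ± 57.3 CPM. In lung 3 of 7 fell and 1 rose. Cyp4b1 fell to 495 ± 74.2 CPM after CLP, against 1025 ± 41.2 CPM after sham, Cyp4f13 to 34.1 ± 0.993 against 41.1 ± 1.52 CPM, a call lost in 6 of 14 alternatives, 4 of them without CLP replicate 2 or 3 or sham replicate 2 or 3, and Por, the reductase that serves all microsomal cytochromes P450, rose to 776 ± 15.3 against 428 ± 37.2 CPM.

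Of 23 genes of the PPAR family, its partners and coregulators tested in liver, 7 fell and 2 rose. Esrra, the estrogen-related receptor of mitochondrial genes, fell to 5.86 ± 0.378 CPM in CLP liver, against 17.5 ± 1.56 CPM in sham liver (SD, n = 3 each), the coactivator Ppargc1b to 0.412 ± 0.231 against 2.65 ± 0.415 CPM, and Tfeb, a regulator of lysosomes and of fasting lipid use, to 1.77 ± 0.202 against 4.97 ± 1.31 CPM. In lung 3 of 21 fell and 3 rose, with Nr1d1, a repressor of the circadian clock, at 107 ± 13.8 CPM after CLP against 241 ± 16.7 CPM after sham, the corepressor Nrip1 at 66.7 ± 6.28 against 40.1 ± 2.53 CPM and the related receptor Ppard at 55.4 ± 11 against 34.5 ± 2.07 CPM.

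Of 23 further PPARA-responsive genes tested in liver 11 fell and 2 rose, and 7 of the 11 fell by at least 2-fold. Hormone-sensitive lipase, Lipe, fell to 3.6 ± 0.596 CPM in CLP liver, against 17.2 ± 1.45 CPM in sham liver (SD, n = 3 each), the glycerol channel Aqp9 to 85.2 ± 21.8 against 331 ± 41.9 CPM and Pdk2, the kinase related to Pdk4, to 17.4 ± 2.56 against 50.7 ± 6.48 CPM. Fgfr1, a receptor for FGF21, rose to 15.7 ± 2.91 against 8.77 ± 0.578 CPM. In lung 7 of 26 fell and 5 rose. Pdk2 fell in lung too, to 25.6 ± 4.37 CPM after CLP against 62.1 ± 1.75 CPM after sham, and the keratin gene Krt23 to 8.32 ± 1.06 against 16.5 ± 0.804 CPM. Glycerol kinase, Gk, rose to 102 ± 26.3 against 20.7 ± 0.891 CPM.

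**Figure D5:**
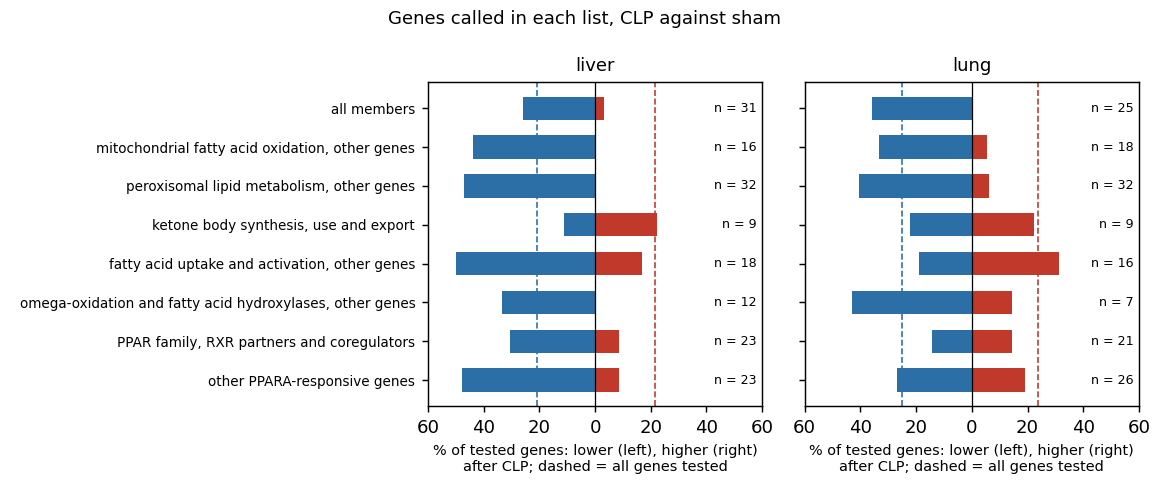
Percentage of tested genes of the set and of the 7 pathway lists that passed the edgeR test, lower after CLP to the left and higher to the right, in liver and lung, with the number tested and with dashed lines for all genes tested. Bars for lower genes in liver reach past the dashed line at 21% in every pathway list but that of ketone body genes. Bars for higher genes in liver stay short of 21.4% in all but that list. The liver bar of the set, 25.8% lower, is near the line. In lung, bars for lower genes stay short of 24.9% for ketone body genes (22.2%), uptake genes (18.8%) and the PPAR family (14.3%), and 31.2% of uptake genes were higher. The members and lists were chosen with earlier results of these data known, so the bars only describe the genes picked.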

How the data were processed

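RNA from liver and lung was sequenced on a NextSeq500 from stranded libraries, per the labels' protocols. The deposited table holds whole-number counts per gene that the authors made, with STAR 2.7.10a, featureCounts, FastQC, DESeq2 and build mm39 listed in the submitters' processing notes; for the counted strand and the annotation release, the sources used here give nothing. Of 55414 gene IDs 52081 had a symbol. All 12 libraries were used, grouped by the labels, and no 2 replicates agreed within sampling noise (chi-square per degree of freedom of 5.28 or more).

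Genes with low counts were left out (edgeR filterByExpr by group, minimum count 10 and minimum total 15). Each organ was fitted alone with edgeR 4.0.16 (R 4.3.3), using TMM scaling and a robust quasi-likelihood F-test of CLP against sham, and p-values were adjusted by Benjamini-Hochberg over all genes tested. A threshold of 0.05 was used, and "called" means past it. Standard errors are the log2 fold change divided by the square root of F, an approximation. The difference between organs came from 1 model of 12 libraries. Alternatives used other scalings, no filter, DESeq2 1.42.0, limma 3.58.1 (voom), the replicate number as a block, 1 fit of all libraries, and each library left out in turn. For the organ difference the block joined liver and lung libraries of the same surgery and number.

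All members are named, and from each pathway list the 3 genes with the lowest p per organ and the lowest-p called gene against the majority. Some genes that this rule picks are not reported here. The members and lists were chosen with earlier results of these data known. Promoters, exon overlaps and shared transcript stretches came from RefSeq and GENCODE for GRCm38, a different build from the counts, and identity between member proteins was not computed. A floor of 3 counts was used for genes at 0, and floors cover counting error only.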

Additional observations from a re-analysis of the deposited data

Results flagged for a closer look

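The response to CLP was called different between organs, by the interaction test of all 12 libraries, for 3 of the 25 genes. By the same rule it was for 17.7% of all 16111 genes in that model, so the count does not set these genes apart. The call of Slc25a20 held under all 19 alternatives, while those of Cpt2 and Acaa1b were lost in 11 and 13 of 19. Acaa1b also shares 46.2% of its transcript, in stretches of 50 bases, with other genes, chiefly Acaa1a. Slc25a20 responded 1.01 higher in lung than in liver on the log2 scale, with 40.1 ± 2.26 CPM in CLP lung and 38.8 ± 0.319 CPM in sham lung, and 58.5 ± 7.35 CPM in CLP liver and 116 ± 26.7 CPM in sham liver (SD, n = 3 each). Cpt2 responded 0.64 higher in lung, with 25.6 ± 1.85 CPM in CLP lung and 25 ± 0.523 CPM in sham lung, and 106 ± 6.22 CPM in CLP liver and 164 ± 36.7 CPM in sham liver. For both genes the sham liver libraries varied most. The response of Acaa1b in lung minus that in liver was -0.68, with 11.7 ± 1.38 CPM in CLP lung and 19.0 ± 1.41 CPM in sham lung, and 275 ± 56.8 CPM in CLP liver and 285 ± 25.1 CPM in sham liver.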

How the results depend on the processing

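Ppara, Creb3l3, Cpt1a, Slc25a20, Cpt2 and Pdk4 in liver, 6 of 9 calls, held under all 14 alternatives, as did Cpt1a, Acadm, Acaa2, Decr1, Eci1, Acaa1b and Acot2 in lung, 7 of 9. Of the 3 organ differences Slc25a20 held under all 19. The 8 members lower in liver became 13 with upper-quartile scaling, 19 with library totals and 14 with all 12 libraries in 1 fit. Library totals moved the median log2 fold change of all genes to -0.21 in liver and -0.13 in lung and upper-quartile scaling to -0.11 and -0.14, and genes higher in liver were 1690 with library totals. Members higher in lung were 1 with DESeq2 size factors, with DESeq2 and with limma-voom, against 0. Members with a higher response in lung than in liver were 1 with DESeq2 size factors, 4 with library totals, 1 with limma-voom and 3 with the replicate block, which added Pex11a, against 2. Members with a lower response were 0 with DESeq2 size factors, library totals and limma-voom, and 2 with DESeq2 and with the replicate block, against 1. Of genes whose response differed, 50.1% were higher in lung, against 65.9% with library totals.

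Leaving out 1 library gave 1 to 2 members higher and 6 to 11 lower in liver, with 11 without sham replicate 1, and 0 higher and 8 to 9 lower in lung. It gave 1998 to 2557 genes higher and 1894 to 2499 lower in liver, and 2952 to 4216 higher and 2668 to 3795 lower in lung. Members with a higher response in lung were 1 to 5, with 5 without sham liver replicate 1, and those with a lower response 0 to 1, beside 1062 to 1623 and 951 to 1423 genes. Acot3 in liver reversed, to 1.67 without sham replicate 3, within a range of -1.20 to 1.67. The causes were not tested. The pathway lists were put through the same alternatives after the data had been seen. Of 119 calls of list genes in the organs together 74 held in every alternative and 0 reversed sign.

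The labels do not say whether equal replicate numbers mark shared mice or batches. Deviations of same-numbered CLP and sham libraries correlated at 0.0557 to 0.194 in liver and 0.0233 to 0.104 in lung. Between liver and lung they correlated at 0.204, 0.0977 and 0.289 for CLP, each library correlating best with its own number, a hint from the data and not the design, and at -0.0251, 0.0499 and 0.117 for sham, where that did not hold for each. The organ difference was fitted without the block. With the number as a replicate block 10 members were lower and 1 higher in liver, and 9 lower in lung. Within an organ this block joined CLP and sham libraries of the same number, and it added Cyp4a31 and Bdh1 in liver (edgeR, Benjamini-Hochberg adjusted p = 0.02495 and 0.02455). For the organ difference the block instead joined liver and lung libraries of the same surgery and number, and it added Pex11a and Pdk4. With 3 libraries a group and 10559895 to 15854117 counts each, small changes and the 6 genes with at most 8 counts in any lung library could not be resolved.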
